A study of Homo sapiens with 2 samples.

Results

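Chromatin remodelling enzymes and their partner subunits were described in KYSE170-luc cells, a luciferase-carrying line of human esophageal squamous carcinoma, after introduction of the transcription factor SOX17. The genes were those whose symbol on the array's annotation is CHD, ARID or INO80, alone or followed by digits or letters, or begins with SMARC. Pseudogenes, antisense genes and CHDH, an enzyme of choline breakdown, were left out. This gave 36 of the 19775 genes that had a probe set paired with 1 symbol, on 120 of 54675 probe sets. A gene had between 1 and 9 probe sets, with a median of 3. The study compared 1 array of cells transfected with a SOX17 plasmid with 1 array of cells that received an empty vector, both collected at 12 h. Both groups share the parent line, the medium and the transfection. There was 1 array per group, so no spread between cultures is known and no p-value is given.

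Remodellers use the energy of ATP to slide, evict or exchange nucleosomes, and fall into the SWI/SNF, ISWI, CHD and INO80 families. Most work inside large complexes, in which one ATPase is joined by subunits that scaffold it or bring it to its sites. Genes of SWI/SNF subunits, ARID1A above all, are among those often mutated in human carcinomas. ARID names a DNA-binding domain that some SWI/SNF subunits carry and that proteins outside the complex carry too.

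Values are the linear intensities that the authors deposited. An intensity of 95, the 60th percentile of the pooled values, served as the floor, and a probe set below it has no usable ratio. The probe set with the highest mean level stood for its gene, which was called measured when that probe set reached the floor on each array. Log2 ratios are SOX17 over empty vector and are positive where the SOX17 array was brighter. Counts past a fold use the representative probe set. Probe sets of 1 gene gave the error within these arrays, an SD of 0.27 for 1 log2 ratio over 4574 genes. In the lowest tertile of level it was 0.35, in the middle 0.26 and in the highest 0.19. The 2 arrays had equal trimmed means (500.1), and of the 10034 measured genes the median log2 ratio was 0.03. The 24 probe sets of the poly-A controls, spiked into the RNA ahead of the labelling step, were all higher on the SOX17 array, with a median log2 ratio of 0.57. Their part in the ratios below was not tested. Of the 6 squamous carcinoma markers with a named probe set (KRT5, KRT14, SFN, DSG3, CDH1 and ITGB4) all were measured. Their summed intensity was 68897.6 on the SOX17 array and 66880.2 on the empty vector array. Most of it came from SFN, at 52641.3 on the SOX17 array and 50352.6 on the empty vector array. KRT5 was the dimmest, at 273.0 on the SOX17 array and 247.5 on the empty vector array. Of 3 endothelial markers (PECAM1, VWF and CDH5) 0 were measured. Of 4 leukocyte markers 1 was, CD79A at 96.9 on the SOX17 array and 112.0 on the empty vector array, and PTPRC was below the floor on both. Of 4 fibroblast markers 1 was, COL1A1 at 845.1 on the SOX17 array and 780.2 on the empty vector array, and DCN and PDGFRB were below the floor on both. SOX17 itself was below the floor on both arrays, at 83.8 and 6.5 on the SOX17 array and at 4.5 and 19.1 on the empty vector array for its 2 probe sets.

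Most remodeller genes were present in these cells, and few differed between the arrays. In RNA from a whole culture, fewer cells with a transcript and less of it per cell cannot be told apart. Of the 36 genes, 32 (88.9%) were measured on both arrays, against 50.7% of all named genes. Of the 120 probe sets, 70 reached the floor on both arrays, 42 on neither and 8 on 1 array only. On the whole array 20064 of 54675 probe sets reached it on both, with array controls left out of the 20064. Of the 8, all but that of ARID3A reached the floor on the empty vector array. Over all probe sets 40.4% reached it on the SOX17 array and 39.6% on the empty vector array. SMARCD1 and CHD6 exceeded 1.5-fold in the direction of the SOX17 array (6.25% of the 32 measured, against 3.78% of all measured genes). CHD7 was at least 1.5-fold lower (3.12%, against 3.19% of all measured genes). No remodeller gene was 2-fold higher, where 0.419% of all measured genes were, or 2-fold lower, where 0.329% were. These shares lay near those of the whole array and mark nothing particular to remodellers. The median log2 ratio of the 32 genes was -0.02, with 15 above 0 and 17 below (53.1%, against 45.4% of all measured genes). The SD across these genes was 0.31, beside 0.32 across all measured genes. A total of 23 (71.9%) lay within 1 SD of a ratio (0.27) from 0, as did 65.0% of all measured genes.

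**Figure D1:**
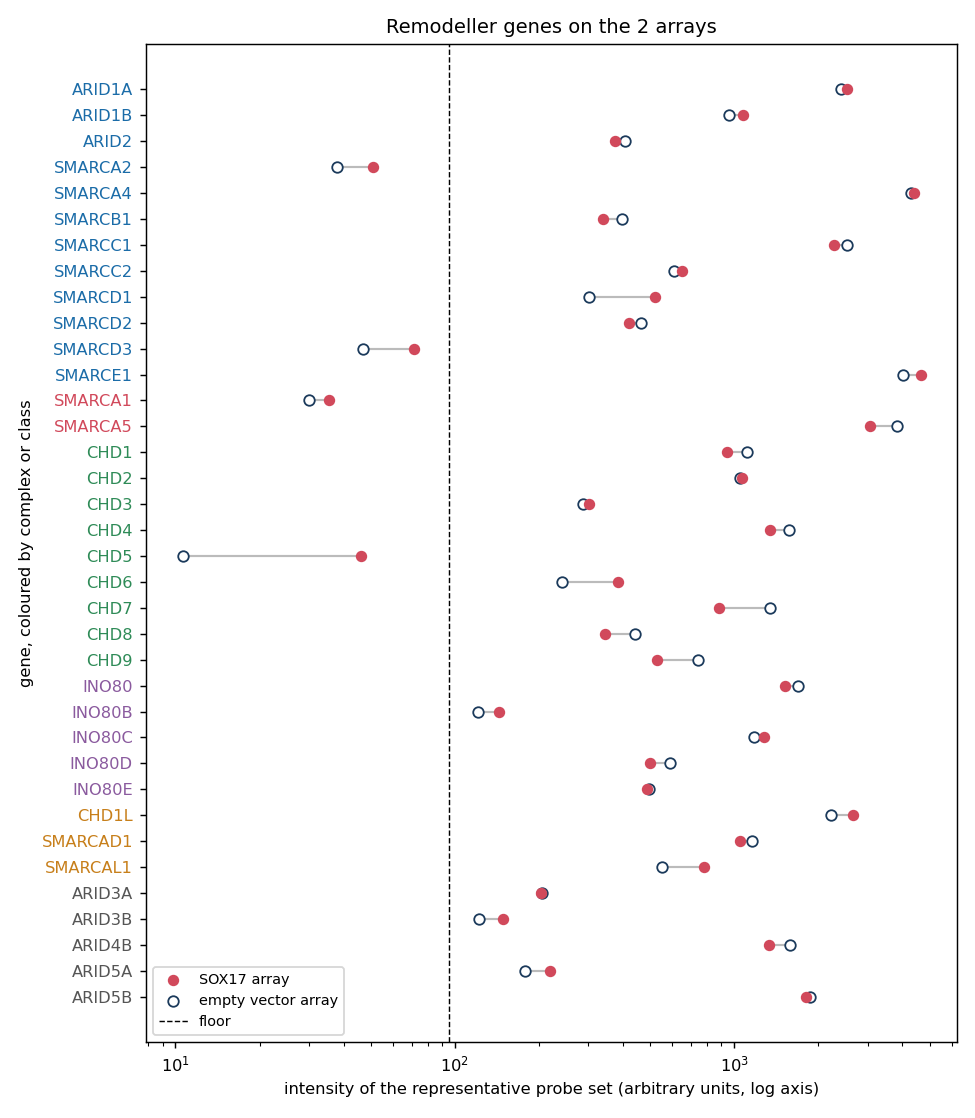
Intensity of the representative probe set of each of the 36 genes on the SOX17 array (filled) and the empty vector array (open), on a log axis, with the floor of 95 as a dashed line. The 4 genes left of the floor are SMARCA2, SMARCD3, SMARCA1 and CHD5, and in SMARCD1, CHD6 and CHD7 the points lie at least 1.5-fold apart among the measured genes.

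Probe sets of 1 gene often went opposite ways. Of the 32 genes, 13 rest on 1 measured probe set. Of the other 19, 10 (52.6%) had measured probe sets on both sides of 0, against 51.3% of all genes with several. A total of 6 genes were below 0 on each measured probe set (31.6%, against 25.5% of all such genes), namely ARID2, ARID5B, CHD1, CHD7, SMARCA5 and SMARCC1. The dimmest probe set of SMARCC1, whose ratio was nearest to 0, read 211.1 on the SOX17 array and 211.3 on the empty vector array, and it lay above 0 after quantile normalization, which left 5. ARID1A, INO80C and SMARCE1 were above 0 on each (15.8%, against 23.1%). Agreement of probe sets is a property of these 2 arrays and does not measure the spread between cultures.

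**Figure D2:**
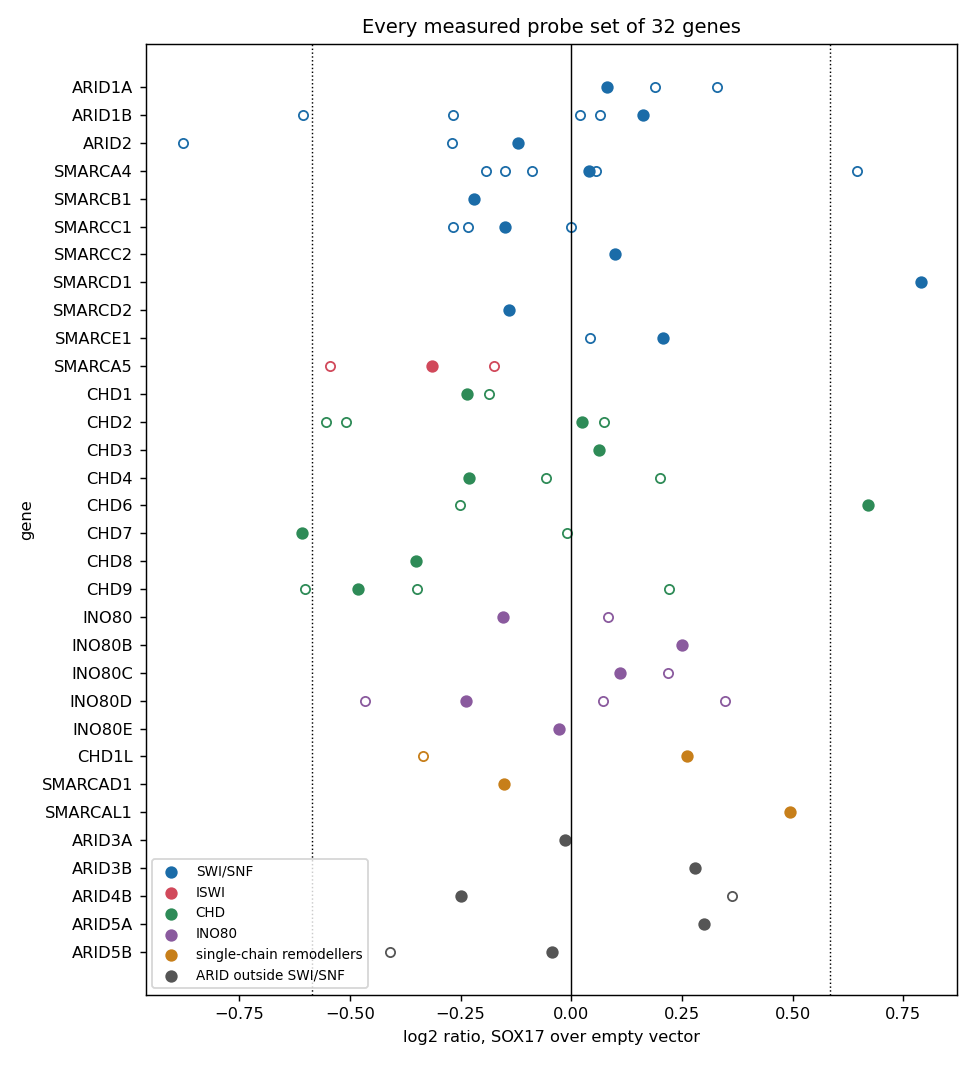
Log2 ratio, SOX17 over empty vector, of every measured probe set of the 32 measured genes, coloured by complex or class. Filled points are the representative probe sets, open points the others, and dotted lines mark 1.5-fold. SMARCD1, at 0.79, rests on 1 probe set, and CHD6 has probe sets at 0.67 and -0.25.

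The promoters of 4 genes are shown because SMARCD1 had the highest ratio of the 32, SMARCA5 was below 0 and ARID1A above 0 on 3 of 3 measured probe sets, and INO80 is an ATPase gene whose window holds the SOX core. They were chosen after the values were seen. Each is the 250 bases before the gene's start, from RefSeq on GRCh38.p14, read 5′ to 3′ on the gene's strand. Capitals mark the SOX core ACAAT or its complement ATTGT, and the GC box GGGCGG or its complement CCGCCC. The motifs cannot overlap each other.
SMARCD1 (chr12:50085092-50085341, strand +): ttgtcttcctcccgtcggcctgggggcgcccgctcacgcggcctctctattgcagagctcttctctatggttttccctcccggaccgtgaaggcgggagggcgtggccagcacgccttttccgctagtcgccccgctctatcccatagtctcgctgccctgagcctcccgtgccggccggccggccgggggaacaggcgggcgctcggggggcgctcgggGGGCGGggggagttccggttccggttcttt
SMARCA5 (chr4:143513452-143513701, strand +): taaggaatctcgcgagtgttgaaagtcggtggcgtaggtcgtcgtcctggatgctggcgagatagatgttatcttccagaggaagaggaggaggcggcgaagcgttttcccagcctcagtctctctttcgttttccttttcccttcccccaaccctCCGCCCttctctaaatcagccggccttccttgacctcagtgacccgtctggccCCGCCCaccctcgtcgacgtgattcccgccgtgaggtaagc
ARID1A (chr1:26695765-26696014, strand +): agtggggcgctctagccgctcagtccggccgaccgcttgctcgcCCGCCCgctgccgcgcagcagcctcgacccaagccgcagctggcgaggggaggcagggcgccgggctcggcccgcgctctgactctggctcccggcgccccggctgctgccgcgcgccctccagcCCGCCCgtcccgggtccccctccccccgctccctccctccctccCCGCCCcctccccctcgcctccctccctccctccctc
INO80 (chr15:41116281-41116530, strand -): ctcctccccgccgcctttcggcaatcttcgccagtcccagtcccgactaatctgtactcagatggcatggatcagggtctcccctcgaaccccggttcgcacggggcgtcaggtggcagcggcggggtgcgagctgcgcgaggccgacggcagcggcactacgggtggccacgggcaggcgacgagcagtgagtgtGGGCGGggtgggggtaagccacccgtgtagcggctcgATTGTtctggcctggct
The windows of SMARCD1, SMARCA5 and ARID1A hold no SOX core, and that of INO80 holds 1, near its 3′ end. The GC box occurs 1 time before SMARCD1, 2 times before SMARCA5, 3 times before ARID1A and 1 time before INO80. Windows were at hand for 28 of the 36 genes, 48 in all since some genes have several. The SOX core was in 7 (14.6%) of the 48 windows, from 6 of the 28 genes with 2 from SMARCAD1, against 24.6% of 35116 windows of all genes. The window of INO80C is 1 of the 7 and may lie within an exon of another transcript. Without it the core was in 6 (12.8%) of 47. These windows were also richer in G and C, with a median of 65.2% against 58% for all, and held a median of 20 CpG against 11. The GC box was in 50% of them, against 42.6% of all. A match is a description of these letters and not evidence of binding.

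Of the SWI/SNF ATPases, SMARCA4 (BRG1) was measured and its alternative SMARCA2 (BRM) was not. SMARCA4 read 4395.6 on the SOX17 array and 4273.3 on the empty vector array. Its log2 ratio was 0.04, and 6 measured probe sets ranged from -0.19 to 0.65. The value of 0.65 belongs to a dim probe set, at 210.7 on the SOX17 array and 134.7 on the empty vector array. Its ID ends in _x_at, the mark of probes that can bind other transcripts. A brighter probe set of SMARCA4, at -0.15, has such an ID too. So have measured probe sets of ARID1A (0.33), ARID1B (-0.27), ARID4B (0.36), CHD1 (-0.19), INO80 (-0.15) and, as given below, SMARCA5. All 7 probe sets of SMARCA2 lay below the floor, at 1.7 to 67.7 on the SOX17 array and 1.6 to 64.3 on the empty vector array. For SMARCA2 no fold is given, and a low level and probe sets that miss its transcript cannot be told apart.

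Among the core and accessory subunits of SWI/SNF, SMARCD1 had the highest ratio. SMARCD1 (BAF60A), which links the complex to transcription factors, read 521.7 on the SOX17 array and 302.0 on the empty vector array. This is a 1.73-fold higher intensity (log2 ratio 0.79), on a single measured probe set in the lowest tertile of level, where the SD of 1 ratio was 0.35. Its other probe set read 78.1 on the SOX17 array and 99.5 on the empty vector array, below and barely above the floor, and did not show the higher value. The paralog SMARCD2 read 420.8 on the SOX17 array and 464.1 on the empty vector array (-0.14). SMARCD3, the third paralog, lay below the floor, at up to 71.5 on the SOX17 array and up to 46.8 on the empty vector array.

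The scaffold subunit SMARCC1 (BAF155) read 2273.8 on the SOX17 array and 2522.7 on the empty vector array, with log2 ratios of -0.27 to -0.001 over 4 probe sets. SMARCC2 (BAF170), its paralog, read 652.2 on the SOX17 array and 609.3 on the empty vector array (0.10). A second probe set of SMARCC2 went the other way, at 61.4 on the SOX17 array, below the floor, and 247.0 on the empty vector array. Measured against the floor it was at least 2.6-fold lower on the SOX17 array, and it was the 1 probe set of the 120 with such a bound. Which of the probe sets reports the level of SMARCC2 was not tested. SMARCB1 (INI1), the subunit lost in rhabdoid tumours, read 339.5 on the SOX17 array and 395.2 on the empty vector array (-0.22). SMARCE1 (BAF57), which carries an HMG box like that of SOX proteins, read 4642.0 on the SOX17 array and 4024.0 on the empty vector array, with log2 ratios of 0.21 and 0.04 on 2 probe sets. On their representative probe sets these core subunits lay close to 0 beside SMARCD1. SMARCB1 and SMARCE1 each had a dim probe set that reached the floor on the empty vector array only. That of SMARCB1 read 75.7 on the SOX17 array and 161.5 on the empty vector array. That of SMARCE1 read 82.8 on the SOX17 array and 144.2 on the empty vector array.

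The ARID subunits decide which form of SWI/SNF is built, ARID1A or ARID1B in canonical BAF and ARID2 in PBAF. ARID1A read 2541.8 on the SOX17 array and 2405.7 on the empty vector array (0.08), and its 3 measured probe sets, 0.08 to 0.33, were all above 0. The IDs of all 3 end in _s_at or _x_at, and ARID1A had no value once such probe sets were left out. ARID1B read 1074.0 on the SOX17 array and 960.2 on the empty vector array (0.16). Its 5 measured probe sets ran from -0.61 to 0.16, and their mean was -0.13, so its sign depends on the probe set. ARID2 read 375.0 on the SOX17 array and 407.4 on the empty vector array (-0.12). The 3 measured probe sets of ARID2 were all lower on the SOX17 array, and the lowest, at 131.6 on the SOX17 array and 241.9 on the empty vector array, had a log2 ratio of -0.88. PBRM1, the PBAF bromodomain subunit, read 974.2 on the SOX17 array and 1171.1 on the empty vector array, with 3 probe sets from -0.36 to -0.27. Over the 10 measured SWI/SNF genes the median log2 ratio was 0.06, and with the mean over probe sets it was -0.04. On the representative probe sets 6 lay above 0 and 4 below (40%, against 45.4% of all measured genes).

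Of the ISWI ATPases, SMARCA5 was measured and SMARCA1 was not. SMARCA5 (SNF2H), which spaces nucleosomes in several small complexes, read 3066.6 on the SOX17 array and 3811.9 on the empty vector array. Its log2 ratio was -0.31 (1.24-fold lower), and its other probe sets gave -0.55 and -0.17. The values of -0.31 and -0.17 belong to probe sets whose IDs end in _x_at, and that of -0.55 does not. This gene lay in the highest tertile of level, where the SD of 1 ratio was 0.19. All genes with 3 or more measured probe sets were below 0 on each in 19.8% of cases, and above 0 on each in 13.2%. SMARCA1 (SNF2L) had 4 probe sets below the floor, at 4.4 to 41.0 on the SOX17 array and 1.7 to 30.1 on the empty vector array.

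More partners of ISWI ATPases lay below 0 than above. Of 9 genes 8 were measured, 6 of them below 0 (75%, against 45.4% of all measured genes), with a median log2 ratio of -0.22. On the representative probe sets none reached 1.5-fold. Of all measured genes 3.78% did in the higher and 3.19% in the lower direction, so that none among 8 is close to that background. BPTF, the large NURF subunit, read 741.3 on the SOX17 array and 1056.7 on the empty vector array (-0.51), though its 4 probe sets reached up to 0.01. BAZ1A, the partner in ACF, read 3414.7 on the SOX17 array and 4527.4 on the empty vector array (-0.41 and -0.07 on 2 probe sets). BAZ2B went the other way, at 625.1 on the SOX17 array and 478.4 on the empty vector array (0.39). BAZ2A counts as below 0 at -0.01, but its other measured probe set was at 0.98. RSF1, at -0.10, reached up to 0.24 over 5 probe sets. BAZ1B (-0.34) and CHRAC1 (-0.36) rest on 1 measured probe set each. The median kept its sign under each alternative run, between -0.35 and -0.07.

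The CHD ATPases held both CHD6 and CHD7, and their median was the lowest of the classes with several measured genes. Over 8 measured genes the median log2 ratio was -0.23, with 5 below 0 (62.5%, against 45.4% of all measured genes), and it lay between -0.29 and -0.12 under each alternative run. With CHD1L, which shares the name, the median ran from -0.24 to -0.01. CHD1, which binds methylated histone H3 lysine 4 in human cells, read 940.7 on the SOX17 array and 1107.3 on the empty vector array, with log2 ratios of -0.24 and -0.19 on 2 probe sets. CHD2, its paralog, read 1066.7 on the SOX17 array and 1048.3 on the empty vector array (0.03). CHD2 had 4 measured probe sets, of which 2 lay at -0.55 and -0.51, and the mean of the 4 was -0.24. Another probe set of CHD2 straddled the floor, at 93.7 on the SOX17 array and 96.0 on the empty vector array.

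CHD3, CHD4 and CHD5 are the alternative ATPases of NuRD, a complex that joins remodelling to histone deacetylation. CHD4 read 1338.5 on the SOX17 array and 1570.7 on the empty vector array (-0.23), with 3 probe sets from -0.23 to 0.20. CHD3 read 301.2 on the SOX17 array and 288.3 on the empty vector array (0.06). CHD5, known mainly from neural tissue, was below the floor on both probe sets, at 12.9 and 46.2 on the SOX17 array and 11.0 and 10.6 on the empty vector array. The NuRD partners had a median of 0.17, but with the mean over probe sets the median was -0.01. Of 12 measured genes 8 lay above 0 and 4 below (33.3%, against 45.4% of all measured genes). On the representative probe sets none passed 1.5-fold, near the background of 3.78% higher and 3.19% lower. Other measured probe sets lay at -0.67 in RBBP4, -0.51 in MBD3 and -0.29 in GATAD2A, all counted above 0. HDAC2, counted below 0, had one at 0.13. MTA2 read 150.7 on the SOX17 array and 102.0 on the empty vector array (0.56), close to the floor. GATAD2B had a log2 ratio of 0.49, and the deacetylase HDAC1, at 15064.7 on the SOX17 array and 12139.9 on the empty vector array, one of 0.31.

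Within the class, the widest ratios were those of CHD6, CHD7 and CHD9, which with CHD8 form a subgroup by sequence. CHD6 read 384.2 on the SOX17 array and 241.5 on the empty vector array, 1.59-fold higher (0.67). Its other measured probe set read 197.4 on the SOX17 array and 235.0 on the empty vector array (-0.25), and the mean of the pair, 0.21, did not reach 1.5-fold. CHD7, the gene mutated in CHARGE syndrome, read 883.1 on the SOX17 array and 1345.4 on the empty vector array, 1.52-fold lower (-0.61). Its other measured probe set read 279.7 on the SOX17 array and 281.7 on the empty vector array (-0.01), so CHD7 passed 1.5-fold on 1 of 2. CHD8, which binds beta-catenin, read 344.4 on the SOX17 array and 439.5 on the empty vector array (-0.35) on its single probe set. CHD9 read 529.8 on the SOX17 array and 739.5 on the empty vector array (-0.48). Of the 4 measured probe sets of CHD9, 3 were lower on the SOX17 array, at -0.60, -0.48 and -0.35, and the fourth was at 0.22. A dim probe set of CHD9 reached the floor on the empty vector array only, at 127.4 there and 41.2 on the SOX17 array.

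**Figure D3:**
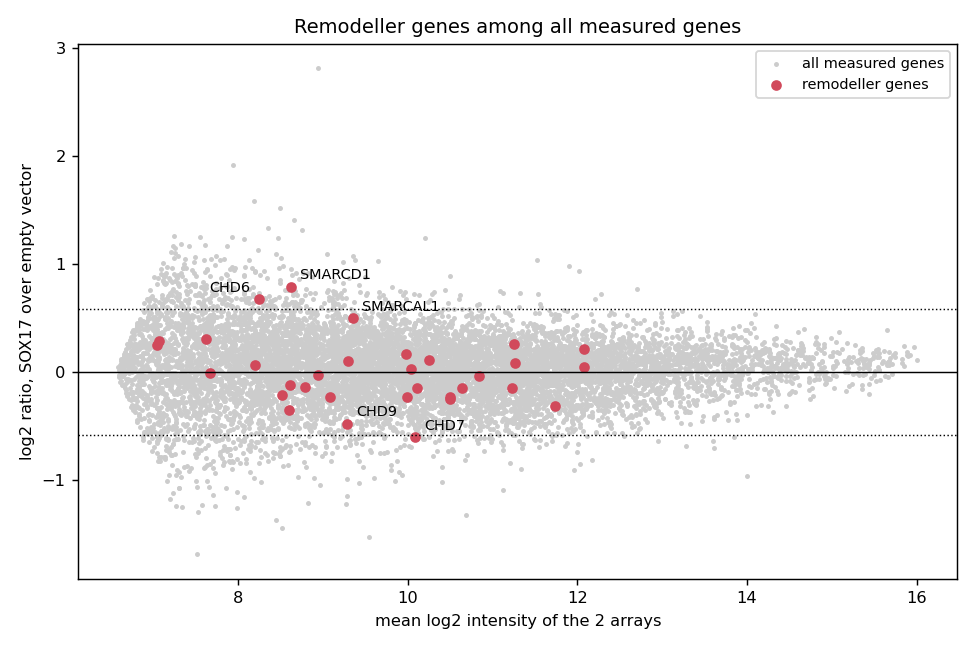
Log2 ratio, SOX17 over empty vector, against the mean log2 intensity of both arrays for the 10034 measured genes (grey) and the 32 measured remodeller genes (red), with dotted lines at 1.5-fold. SMARCD1 and CHD6 lie above the upper line at a low level and CHD7 just below the lower line, and no red point lies outside the grey cloud.

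INO80 genes lay close to 0. The ATPase INO80 itself read 1520.2 on the SOX17 array and 1690.7 on the empty vector array, with log2 ratios of -0.15 and 0.08 on 2 probe sets. INO80B read 144.3 on the SOX17 array and 121.4 on the empty vector array (0.25), near the floor, and INO80C 1273.0 on the SOX17 array and 1178.8 on the empty vector array (0.11 and 0.22 on 2 probe sets). INO80D read 500.0 on the SOX17 array and 589.5 on the empty vector array (-0.24), but its 4 measured probe sets ran from -0.47 to 0.35. INO80E read 486.8 on the SOX17 array and 496.2 on the empty vector array (-0.03). The median of the 5 was -0.03. The 18 partners of INO80, SRCAP and TIP60, complexes that place or remove the histone variant H2A.Z, were all measured. Of these 10 lay above 0 and 8 below (44.4%, against 45.4% of all measured genes), with a median of 0.07. ACTR8, an actin-related subunit of INO80, was the 1 partner past 1.5-fold on its representative probe set. It read 539.9 on the SOX17 array and 340.7 on the empty vector array (0.66). Its other probe set lay just below 0 (-0.002). EP400, at 0.06, had another measured probe set at -0.59. DMAP1, a subunit shared by SRCAP and TIP60, had a log2 ratio of 0.42, and the scaffold TRRAP had 0.37 and 0.67 on 2 probe sets.

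Remodellers that can act without a large complex differed among themselves. SMARCAL1, which rewinds DNA at stalled replication forks, read 777.5 on the SOX17 array and 552.1 on the empty vector array (log2 ratio 0.49, 1.41-fold higher) on its single probe set. CHD1L (ALC1), which is switched on by poly(ADP-ribose), read 2668.1 on the SOX17 array and 2228.0 on the empty vector array (0.26). A second probe set of CHD1L read 1321.7 on the SOX17 array and 1666.2 on the empty vector array (-0.33), and the mean was -0.04. A dim probe set of CHD1L reached the floor on the empty vector array only, at 153.1 there and 65.0 on the SOX17 array. SMARCAD1, which takes part in keeping silent chromatin, read 1045.9 on the SOX17 array and 1162.0 on the empty vector array (-0.15). Of 9 other ATPases of the SNF2 type 7 lay below 0 (77.8%, against 45.4% of all measured genes), with a median of -0.16. Among the 7, ATRX (-0.02) and ERCC6 (-0.28) each had a second measured probe set above 0, at 0.46 and 0.18. On the representative probe sets none of the 9 passed 1.5-fold, near the background of 3.78% higher and 3.19% lower. HLTF, also a fork remodeller, read 1922.5 on the SOX17 array and 2729.5 on the empty vector array (-0.51). SHPRH, which is a ubiquitin ligase too, had a log2 ratio of -0.33, and HELLS, which works on DNA methylation at repeats, one of -0.31, with 5 probe sets from -0.66 to 0.02.

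ARID genes outside SWI/SNF split to both sides. ARID5A, which binds and stabilises inflammatory messenger RNAs, read 219.1 on the SOX17 array and 177.9 on the empty vector array (0.30). ARID3B read 148.4 on the SOX17 array and 122.2 on the empty vector array (0.28), and both genes rest on 1 dim probe set. ARID3A, which binds AT-rich DNA, read 202.7 on the SOX17 array and 204.7 on the empty vector array (-0.01, and just above 0 after quantile normalization). Its other probe set reached the floor on the SOX17 array only, at 171.4 there and 90.0 on the empty vector array. ARID4B, a subunit of SIN3 corepressors, read 1332.5 on the SOX17 array and 1584.0 on the empty vector array (-0.25), while its other measured probe set gave 0.36. ARID5B, a partner of a histone demethylase, read 1808.0 on the SOX17 array and 1863.7 on the empty vector array, with log2 ratios of -0.04 and -0.41. Of the other ARID domain genes, the histone demethylase KDM5C had a log2 ratio of 0.45, the Polycomb partner JARID2 of 0.26 and the demethylase KDM5A of -0.14, and the 4 measured genes had a median of 0.14.

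**Figure D4:**
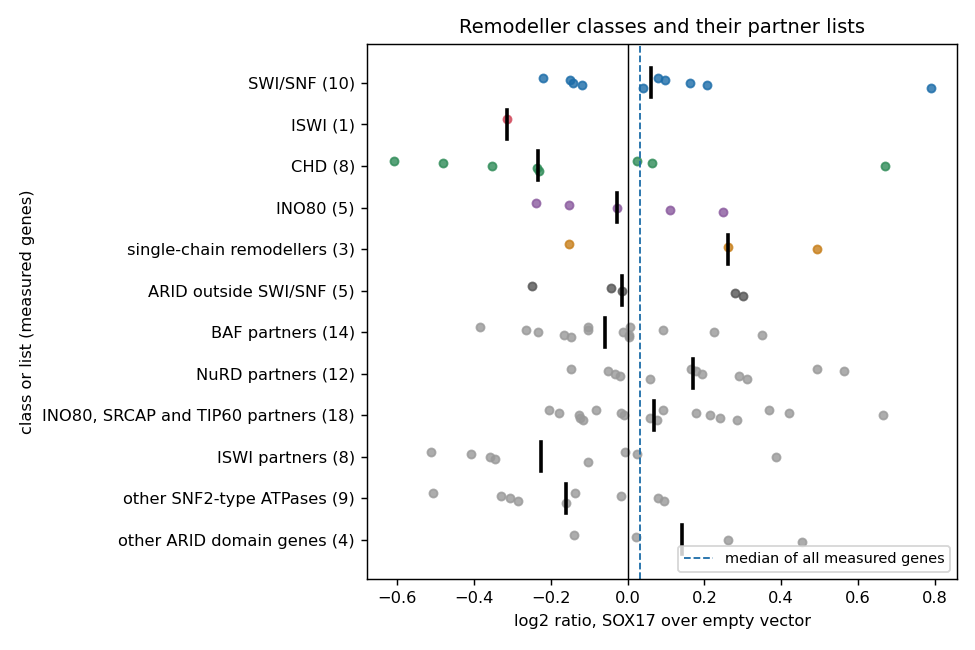
Log2 ratio, SOX17 over empty vector, of each measured gene in 6 classes of remodeller genes and in 6 lists of partners or relatives (grey), with the number measured in brackets. Black bars are medians, from -0.31 for the single ISWI gene to 0.26 for the single-chain remodellers, and the dashed line is the median of all measured genes (0.03).

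On their representative probe sets the remaining SWI/SNF partners had log2 ratios between -0.38 and 0.35. Other measured probe sets of BCL11A (-0.68), PHF10 (-0.58) and SS18 (0.50) lay outside that range. Of 18 BAF partners 14 were measured, 6 above 0 and 8 below (57.1%, against 45.4% of all measured genes), with a median of -0.06. None was past 1.5-fold on its representative probe set. SS18L1 had a log2 ratio of -0.38, BCL7A of 0.35 and PBRM1, given above, of -0.27. In all, 65 of 70 partner and related genes with values were measured, and 1 (1.54%) passed 1.5-fold, beside 3.78% of all measured genes higher and 3.19% lower. By name alone, the median was -0.05 for 10 SMARC genes. With no floor, which takes in all 13, it was 0.10, and without _x_at and _s_at probe sets 0.03. For 8 ARID genes it was 0.03, but -0.04 under a floor set at the 75th percentile. For 5 INO80 genes it was -0.03. For 9 CHD genes, CHD1L included, it was -0.23, but -0.01 without _x_at and _s_at probe sets.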

How the data were processed

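RNA was measured on 2 Affymetrix arrays, 1 per transfection, 12 h after transfection, per the labels. The authors deposited linear intensities made with GCOS, per the submitters' processing notes; its version, algorithm and detection calls are not given in the sources used here. By the values, both arrays were scaled to a common mean (lowest and highest 2% left out), and they were used as deposited. Depth does not apply to arrays, and their number limits the precision.

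Probe sets were named through GEO's annotation of the platform, and all 36 symbols matched RefSeq. A further 5 probe sets shared by ARID4B or INO80B with other genes, and SMARCAD1-DT, a non-coding transcript on the strand opposite to SMARCAD1, were not counted. The members and lists were chosen with earlier results of these data known. Classes by complex were set after the values were seen. TP63, KRT6A and KDM5D were not analysed here.

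Named were all members, with probe set ranges for the 12 largest ratios and any gene with a probe set past 1.5-fold, and the 3 largest ratios of each partner list. The SD of 1 ratio came from differences between the 2 brightest measured probe sets of a gene. Alternatives were centring, quantile normalization, loess (span 0.4), other floors (50th and 75th percentile, none), averaging the probe sets of a gene, and leaving out IDs ending in _x_at or _s_at. Python 3.11.15, numpy 2.4.6, pandas 2.3.3 and statsmodels 0.14.6 were used, and the procedure was tested on simulated data.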

Additional observations from a re-analysis of the deposited data

How the results depend on the processing

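No paired analysis was possible because each group has 1 array. List medians lay near 0, and several turned sign. With no floor, which brings in the genes below it, the median of the remodeller genes was 0.03 over 36 genes. With a floor at the 75th percentile, which leaves 25 genes, it was -0.14. The SMARC median was 0.10 with no floor and 0.03 without _x_at and _s_at probe sets, and the ARID median was -0.04 with a floor at the 75th percentile. Without _x_at and _s_at probe sets the BAF partners had 0.002 and the INO80, SRCAP and TIP60 partners -0.01, and with the mean over probe sets the NuRD partners had -0.01. The median of the CHD name family was -0.01 without _x_at and _s_at probe sets and -0.10 with no floor. The cause of these shifts was not tested. The count at least 1.5-fold higher was 0 with a floor at the 75th percentile, where SMARCD1 and CHD6 are no longer measured, 4 with no floor and 1 with the mean over probe sets. The count at least 1.5-fold lower was 0 with the mean over probe sets and 0 without _x_at and _s_at probe sets, where CHD7 stands at -0.01. With no floor 1 gene was 2-fold higher, CHD5, whose values all lie under 95. Of 239 recomputed gene ratios 232 stayed within 0.27 of the main value and 5 turned sign, and 0 of the 3 genes past 1.5-fold reversed. Many of these could not move. A change of floor leaves a gene's ratio as it is, and centring shifts all ratios by the same amount. Averaging cannot alter the 13 genes with 1 measured probe set. The count of 232 is therefore no measure of stability. The single-chain class, chosen after the data were seen, had a median of -0.04 with the mean over probe sets. The lack of a second array per group limits every ratio.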
